A study of Mus musculus with 9 samples.

Results

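*Sesn2*, *Sesn3*, *Depdc5*, *Ddit4*, *Tsc1*, *Tsc2*, *Eif4ebp1*, *Eif4ebp2*, *Trib3* and *Trib1* encode proteins that restrain the kinases mTORC1 and AKT or the steps that mTORC1 drives. These 10 genes were chosen by name and found by their symbols among the 26858 genes of the count table, where each occurred once. Their transcripts were measured by RNA-seq in nephron progenitors of mice in which a mitochondrial complex III subunit was deleted, with 4 libraries named Cont_71, Cont_72, Cont_73 and Cont_76 and 5 named QpcKO_74, QpcKO_75, QpcKO_77, QpcKO_78 and QpcKO_79. The deleted gene is *Uqcrq*, which encodes QPC, and the question was which transcripts changed when electron transport in these progenitors was disrupted. Control cells came from heterozygous *Six2-Qpc*+/- mice and mutant cells from *Six2-Qpc*-/- mice, so the comparison was between loss of 1 and loss of both copies of the gene, and no wild-type library was analysed here. Both groups were at E18.5, late in gestation, and carried the *Six2*-driven eGFP/Cre fusion transgene, whose Cre acts only in cells that express it or descend from such cells, and eGFP-positive cells were sorted for RNA. The labels do not say whether each library came from 1 embryo or several, nor give litter or sex, so p-values measure the spread between these libraries, which may be technical.

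mTORC1 is a kinase complex at the lysosome that promotes protein synthesis and growth when amino acids and growth factors are present, and AKT passes on the growth factor signal through PI3K. The sestrins and the GATOR1 complex, which contains DEPDC5, hold back the Rag GTPases that recruit mTORC1 when amino acids are scarce, while TSC1 and TSC2 hold back its activator RHEB and are helped by REDD1, the product of *Ddit4*. The 4E-BP proteins, encoded by *Eif4ebp1* and *Eif4ebp2*, bind the cap-binding factor eIF4E and block translation initiation until mTORC1 phosphorylates them. Tribbles proteins are pseudokinases, of which TRIB3 can bind AKT and TRIB1 guides C/EBP factors to degradation. *Sesn2*, *Trib3* and *Eif4ebp1* are known targets of the stress transcription factor ATF4, and *Sesn3* of FOXO factors.

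In the mutant progenitors *Trib3*, *Sesn2*, *Eif4ebp1* and *Sesn3* were higher, by 7.35-, 3.07-, 2.76- and 1.84-fold, and in each of them every mutant library lay above every control library. The other 6 genes did not pass the test: *Trib1*, *Tsc1* and *Tsc2* had log2 fold changes of 0.52, 0.11 and -0.03, and *Depdc5*, *Ddit4* and *Eif4ebp2* of -0.52, -0.51 and -0.47. Of the paralogs among them, both sestrin genes were called, against 1 of the 2 4E-BP genes and 1 of the 2 tribbles genes. Over all 14990 tested genes 14.8% were called, 7.82% higher, and 7.50% were higher without overlap between the groups. RNA levels alone were measured, and neither protein nor phosphorylation is given by these libraries. In whole kidneys of newborn mutants the paper reports more phosphorylation of ribosomal protein S6 and of the product of *Eif4ebp1*, both mTORC1 targets. Those kidneys were compared with littermates lacking Cre, and the paper reads the result as activation of mTORC1 signalling. Whether mTORC1 or AKT activity followed the RNA levels of these genes was not tested.

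Sequences of 3 members are shown because their identity bears on the values that follow. A short read can be assigned to one 4E-BP gene only if the paralogs differ, and the stretch around the eIF4E-binding motif, which the 2 proteins have in common, is printed from the coding strand in GRCm38 (GENCODE M21), with the codons of that motif in capitals. Both stretches lie in coding exon 2, at chr8:27273323-27273387 on the plus strand for *Eif4ebp1* and chr10:61435039-61435103 on the minus strand for *Eif4ebp2*.
Eif4ebp1: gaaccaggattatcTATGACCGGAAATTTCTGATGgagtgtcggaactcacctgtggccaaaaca
Eif4ebp2: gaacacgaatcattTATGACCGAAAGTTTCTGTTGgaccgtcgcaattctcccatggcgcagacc
The codons in capitals stand for residues 53 to 59 of 117 in 4E-BP1 and 54 to 60 of 120 in 4E-BP2. Of the 65 bases 46 were identical, and of the 21 bases in capitals 18. Over the aligned coding sequence the paralogs were 69.1% identical and their transcripts shared no run longer than 14 bases, so a full-length read from one differs from the other. *Sesn2* and *Sesn3* were 65.3% identical with a longest shared run of 23 bases, and *Trib1* and *Trib3* 63.1% identical with one of 12.

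Promoter windows (RefSeq, GRCm38.p6, 250 bases before to 50 after each start) were at hand for 8 of the members, not for *Eif4ebp1* or *Trib1*. They were searched on both strands for TGATGNAA, the core of the CARE element that ATF4 binds with C/EBP factors, for the FOXO motif GTAAACA, for the E-box CACGTG and for the CRE TGACGTCA. *Trib3* held the single match, to the CARE core in its reverse orientation, shown in capitals within 30 bases of the minus strand at chr2:152344028-152344057.
Trib3: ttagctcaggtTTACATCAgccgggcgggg
The match begins 14 bases after the RefSeq start and ends 7 bases before the start of the gene in the count table. Of all 32851 promoter windows 3.97% held TGATGNAA, 3.65% GTAAACA, 7.15% CACGTG and 1.79% TGACGTCA. Windows of this length leave out intronic and more distant elements, and a match is a description of letters, not of binding.

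Between 21040536 and 23986458 reads were counted per library, and no pair of libraries of one genotype agreed within sampling noise. *Uqcrq* averaged 94.1 ± 13.3 CPM (counts per 1000000 of the scaled library size; SD, n = 4) in controls and 21.3 ± 4.45 (n = 5) in mutants, without overlap. The 8 progenitor markers, *Six2* and *Cited1* among them, summed to 2244 to 2715 CPM in controls and 2221 to 2675 in mutants, as the labels state for these cells, and none passed the test in edgeR (1 higher and 1 lower at an unadjusted p under 0.05, 0 by DESeq2, 1 by limma-voom). The 7 stromal markers summed to 76.3 to 142 CPM in controls and 182 to 516 in mutants, without overlap. In edgeR 4 of the 6 tested were higher and none lower (1 lower by limma-voom), and *Pdgfrb* had a log2 fold change of -0.51 (edgeR adjusted p = 0.315). The 4 myeloid markers summed to 0.128 to 6.75 and 4.30 to 76.4 CPM, and none passed in edgeR (3 higher by DESeq2, 4 by limma-voom). The 6 ureteric markers summed to 44.9 to 63.3 and 27.3 to 48.5 CPM, and none of the 3 tested passed in edgeR (2 lower by DESeq2 and by limma-voom). Most of that sum was *Hoxb7* (means of 40.5 and 29.3 CPM) and *Wnt11* (12.9 and 7.17). *Ret*, *Wnt9b* and *Aqp2* had at most 13 reads in any library and were not tested, and *Calb1* had a log2 fold change of 2.88 (edgeR adjusted p = 0.154). The 9 immediate early and heat shock genes summed to 1077 CPM in Cont_76 and 3212 to 4095 in the other controls. In mutants they summed to 861 to 1778 CPM. *Ier2*, *Fosb* and *Jun* were called lower in edgeR and none higher (5 lower by DESeq2 and by limma-voom each). The heat shock genes *Hspa1a* and *Hspa1b* had log2 fold changes of 0.24 and 0.48 (edgeR adjusted p = 0.796 and 0.541). Endothelial, erythroid, podocyte and proximal tubule markers each summed to at most 13.3 CPM in any library. Of the 3 endothelial markers tested, *Pecam1* was higher (log2 fold change 2.42, edgeR adjusted p = 0.0469), with at most 57 reads in a library, and none was lower. No tested erythroid, podocyte or proximal tubule marker passed in edgeR. No marker of these lists was at 0 in every library. The part of these cells and of immediate early induction in the results below was not tested, and in bulk RNA fewer cells of a type and less RNA per cell cannot be told apart. Genes of nascent nephrons were not among these lists. The paper reports some of them, *Wnt4* and *Lhx1* included, as lower in the sorted mutant cells. It also allows that differentiating control cells with low eGFP were sorted, and the part of such cells was not tested either.

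All 10 members had enough reads to be tested. With edgeR and an adjusted p under 0.05, 4 of the 10 were higher and none lower, where 14.8% of 14990 tested genes were called, 7.82% higher and 7.02% lower. At an unadjusted p under 0.05 *Depdc5* alone was lower, DESeq2 called no member lower and limma-voom called 2. Mutant libraries did not overlap control libraries for the same 4 genes, against 15.2% of tested genes, 7.50% in the higher and 7.73% in the lower direction. The median log2 fold change of the members was 0.31 and of all tested genes -0.01.

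Each of the 4 genes was also called in 17 alternative analyses. The share of all tested genes called was 21.2% with DESeq2, 14.9% with RLE and 14.6% with upper-quartile factors, 7.35% and 16.5% with a looser and a stricter filter on low counts, 32.4% with limma-voom, 20.8% with 1 surrogate variable and 11.7% with a covariate for Y-linked expression. Without Cont_71, Cont_72, Cont_73 or Cont_76 it was 8.88%, 8.36%, 6.85% or 14.9%, and without QpcKO_74, QpcKO_75, QpcKO_77, QpcKO_78 or QpcKO_79 it was 21.2%, 11%, 10.5%, 9% or 11.7%. Further members were called in 3 of these, *Depdc5* and *Eif4ebp2* with limma-voom, *Trib1* with the surrogate variable and *Eif4ebp2* without QpcKO_74.

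**Figure D1:**
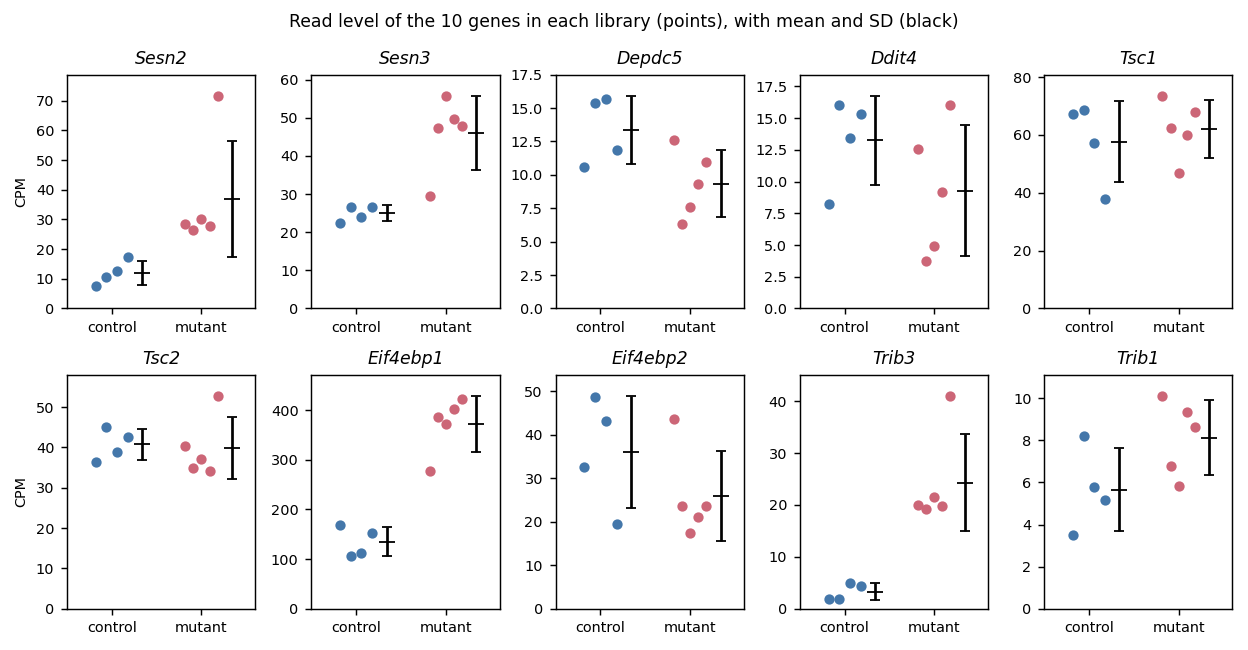
Read level in CPM (vertical axes, each starting at 0) of the 10 members in 4 control libraries (blue) and 5 mutant libraries (red), with the mean and SD in black. Control and mutant points are apart for *Sesn2*, *Sesn3*, *Eif4ebp1* and *Trib3*, and overlap for the other 6, and the highest mutant point of *Sesn2* (71.7 CPM) and of *Trib3* (41.0 CPM) is QpcKO_79.

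Levels per length (RPKM, the CPM divided by the gene length of the table in kilobases) ordered the members in controls as *Eif4ebp1* (138 ± 30.2, SD, n = 4), *Eif4ebp2* (20.2 ± 7.22), *Sesn3* (11.5 ± 0.943), *Ddit4* (7.87 ± 2.08), *Tsc1* (7.49 ± 1.83), *Tsc2* (6.78 ± 0.645), *Sesn2* (3.46 ± 1.18), *Trib3* (1.63 ± 0.787), *Depdc5* (1.63 ± 0.311) and *Trib1* (1.5 ± 0.518). *Eif4ebp1* stood far above the rest in each library, at 109 to 172 RPKM. *Ddit4*, *Tsc1* and *Tsc2* did not differ from each other beyond their spread, and neither did *Trib3*, *Depdc5* and *Trib1* at the foot of the order. In mutants the order was *Eif4ebp1* (379 ± 57.2, n = 5), *Sesn3* (21.3 ± 4.52), *Eif4ebp2* (14.5 ± 5.76), *Trib3* (12 ± 4.62), *Sesn2* (10.6 ± 5.61), *Tsc1* (8.07 ± 1.31), *Tsc2* (6.62 ± 1.26), *Ddit4* (5.50 ± 3.07), *Trib1* (2.15 ± 0.473) and *Depdc5* (1.14 ± 0.308). Here *Eif4ebp2*, *Trib3* and *Sesn2* overlapped, so *Trib3* moved from the foot of the order to its middle. The gene models of the table differ from GENCODE M21 by 6963 bases at the end coordinate of *Sesn3*, 1018 at that of *Eif4ebp1* and 4006 at the start coordinate of *Eif4ebp2*, so the levels per length of these 3 genes depend on the model.

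The sestrins *Sesn2* (ENSMUSG00000028893, chr4:132492032-132510501, GRCm38) and *Sesn3* (ENSMUSG00000032009, chr9:14276301-14326138) were both higher in mutants. *Sesn2* encodes a leucine-sensing sestrin that binds GATOR2 when leucine is low. Its levels in Cont_71, Cont_72, Cont_73 and Cont_76 were 7.50, 10.7, 12.6 and 17.3 CPM, and in QpcKO_74, QpcKO_75, QpcKO_77, QpcKO_78 and QpcKO_79 they were 28.6, 26.3, 30.3, 27.7 and 71.7 CPM. The lowest mutant library stood above the highest control, and 4 of the mutants lay close together with QpcKO_79 far above them. Mutants exceeded controls by a log2 fold change of 1.62 (SE 0.32, 95% interval 0.92 to 2.31, edgeR adjusted p = 0.00689), and 1.23 without QpcKO_79 (adjusted p = 0.00758).

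*Sesn3*, a sestrin that also acts on AKT through mTORC2, was at 22.5, 26.6, 24 and 26.7 CPM in the controls and 29.5, 47.3, 55.6, 49.6 and 47.9 CPM in the mutants, in the same library order. Controls were tight, with a coefficient of variation of 8.17%, and QpcKO_74 was the mutant nearest to them. This gave a log2 fold change of 0.88 (SE 0.17, interval 0.51 to 1.25, edgeR adjusted p = 0.00588). The third sestrin gene, *Sesn1*, is a p53 target and also encodes a leucine-sensing sestrin. It averaged 138 ± 28.6 CPM in controls and 115 ± 26.9 in mutants, with a log2 fold change of -0.27 (interval -0.65 to 0.11, edgeR adjusted p = 0.316). *Sesn1* thus made up 74% ± 5.5 of the summed sestrin RPKM in controls and 53.1% ± 10.5 in mutants, *Sesn2* 6.01% ± 2.45 and 15.6% ± 7.85, and *Sesn3* 20.01% ± 3.48 and 31.3% ± 6.51, given here without a test. The summed level of the 3 genes was 58.7 ± 8.45 RPKM in controls and 68.0 ± 7.03 in mutants, and the groups overlapped. The ratio of *Sesn2* to *Sesn3* reads per base was 0.207 to 0.403 in controls and 0.339 to 0.932 in mutants, a log2 difference of 0.71 that did not pass the 2-sided exact permutation test (p = 0.135, adjusted over 7 ratios 0.222).

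*Depdc5* (ENSMUSG00000037426, chr5:32863701-32994231), the GATOR1 subunit that contacts the Rag GTPases, did not pass the test. It was at 10.6, 15.4, 15.7 and 11.9 CPM in controls and 12.6, 6.29, 7.60, 9.30 and 10.9 CPM in mutants. The groups overlapped, since QpcKO_74 and QpcKO_79 exceeded Cont_71. Its log2 fold change was -0.52 (SE 0.22, interval -0.999 to -0.033, edgeR adjusted p = 0.134), while limma-voom with sample quality weights gave -0.71 (adjusted p = 0.0129). The other GATOR1 subunits *Nprl2* and *Nprl3* had log2 fold changes of 0.21 (interval -0.02 to 0.44) and -0.23 (interval -0.50 to 0.05), with edgeR adjusted p = 0.194 and 0.254. No subunit of the complex was therefore called, at 103, 41.2 and 13.4 CPM for *Nprl2*, *Nprl3* and *Depdc5* in controls.

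The genes of the TSC arm showed no called change. *Ddit4* (ENSMUSG00000020108, chr10:59949675-59951770), whose product REDD1 is induced by hypoxia, glucocorticoids and stress, was at 8.27, 16, 13.4 and 15.3 CPM in controls and 12.5, 3.72, 4.90, 9.15 and 16.1 CPM in mutants. The mutants spread over a wider range than the controls, with QpcKO_75 and QpcKO_77 below every control and QpcKO_79 level with the highest control. The resulting log2 fold change of -0.51 (SE 0.37, edgeR adjusted p = 0.366) had an interval of -1.31 to 0.28, that is 0.404 to 1.21 times the control level. The paralog *Ddit4l* (REDD2) averaged 36.4 ± 15.1 and 50.5 ± 8.11 CPM, with a log2 fold change of 0.47 (edgeR adjusted p = 0.177).

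*Tsc1* (ENSMUSG00000026812, chr2:28641228-28691167), which encodes hamartin, the scaffold of the complex, was at 67.1, 68.5, 57.2 and 37.9 CPM in controls and 73.6, 62.3, 46.8, 59.9 and 68.1 CPM in mutants. Apart from the low Cont_76, the controls lay within the wider range of the mutants. Without that library the log2 fold change of 0.11 (SE 0.18, interval -0.28 to 0.49, edgeR adjusted p = 0.723) became -0.04 (adjusted p = 0.884). *Tsc2* (ENSMUSG00000002496, chr17:24595937-24632629), which encodes tuberin, the GTPase-activating subunit, was at 36.4, 45.1, 39.0 and 42.7 CPM in controls and 40.4, 34.9, 37.2, 34.1 and 52.7 CPM in mutants. Its log2 fold change was -0.03 (SE 0.15, interval -0.35 to 0.29, edgeR adjusted p = 0.903), which bounds the mutant level between 0.784 and 1.22 times the control level. Over 693 bases, 7.2% of its exon length, *Tsc2* overlaps *Pkd1* on the opposite strand, and reads there could not be told apart in libraries without strand information. The third subunit gene *Tbc1d7* had a log2 fold change of -0.09 (edgeR adjusted p = 0.657). The ratio of *Tsc1* to *Tsc2* was 0.694 to 1.44 in controls and 0.983 to 1.42 in mutants (2-sided exact permutation test, p = 0.508), and that of *Ddit4* to *Tsc2* 0.811 to 1.28 and 0.380 to 1.11 (p = 0.198, adjusted 0.231).

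**Figure D2:**
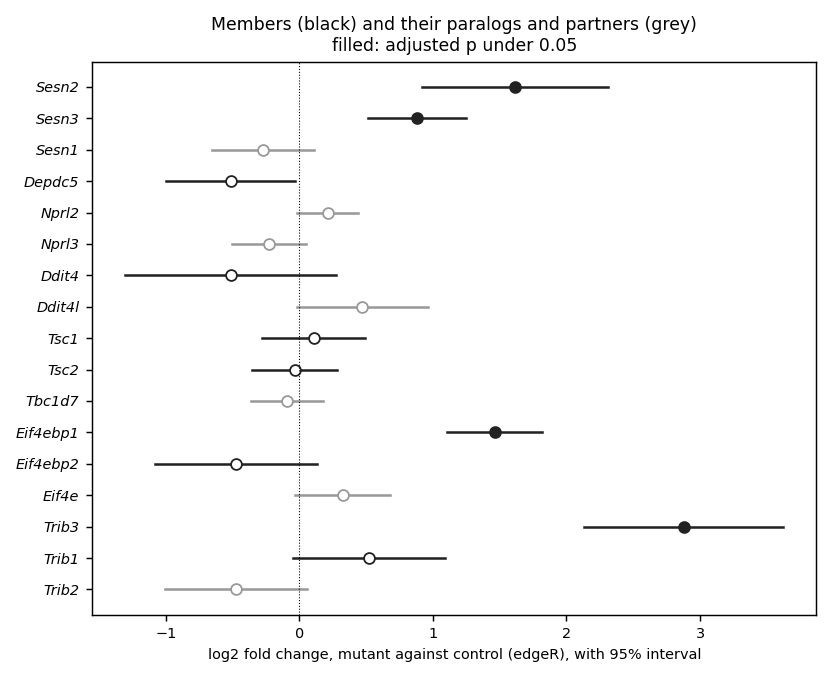
Log2 fold change, mutant against control, from edgeR (horizontal axis) with its 95% interval for the 10 members (black) and 7 paralogs and partners (grey), with filled points past an adjusted p of 0.05. The 4 filled points are *Sesn2* (1.62), *Sesn3* (0.88), *Eif4ebp1* (1.46) and *Trib3* (2.88), and every paralog or partner is open.

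Of the 4E-BP genes 1 was called. *Eif4ebp1* (ENSMUSG00000031490, chr8:27260327-27275656), whose product is the 4E-BP found in most tissues, had the highest level per length of the members and was higher in mutants. Its levels were 168, 107, 113 and 152 CPM in controls and 277, 386, 373, 401 and 423 CPM in mutants. Each mutant library exceeded each control by a wide margin, and QpcKO_74 was again the mutant nearest to the controls. Here the log2 fold change was 1.46 (SE 0.17, interval 1.11 to 1.82, edgeR adjusted p = 0.000364), and it stayed between 1.37 and 1.59 when each library was left out in turn.

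*Eif4ebp2* (ENSMUSG00000020091, chr10:61432497-61452669), the paralog best known from neurons, was at 32.6, 48.8, 43.2 and 19.5 CPM in controls and 43.7, 23.7, 17.4, 21.1 and 23.7 CPM in mutants. QpcKO_74 lay with the upper controls and Cont_76 with the lower mutants, so the groups overlapped. Between genotypes the log2 fold change was -0.47 (SE 0.28, interval -1.08 to 0.13, edgeR adjusted p = 0.273). Without QpcKO_74 it was -0.75 and passed the test (adjusted p = 0.0379), as it did in limma-voom with sample quality weights at -0.78 (adjusted p = 0.0225). *Eif4ebp3* had 0 to 9 reads in a library and was not tested.

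*Eif4ebp1* supplied 86.6% ± 6.38 of the summed 4E-BP RPKM in controls and 96.1% ± 2.27 in mutants, and the sum itself was 158 ± 24.9 RPKM in controls and 394 ± 52.5 in mutants, without overlap. Against *Eif4e*, which encodes the protein that 4E-BPs bind and which had a log2 fold change of 0.32 (interval -0.03 to 0.68, edgeR adjusted p = 0.197), the ratio of *Eif4ebp1* was 1.2, 0.990, 0.915 and 0.918 in controls and 2.15, 1.98, 1.98, 2.08 and 3.16 in mutants. Control libraries held about as many *Eif4ebp1* as *Eif4e* reads per base, and mutant libraries at least 1.98 times as many. The absolute size of these ratios, like the shares above, depends on the gene models, which for *Eif4ebp1* and *Eif4ebp2* differ from GENCODE M21. The log2 difference of 1.16 had p = 0.00794 in the 2-sided exact permutation test, the smallest that 4 against 5 libraries allow, and 0.0278 after adjustment over 7 ratios. The ratio of *Eif4ebp2* to *Eif4e* was 0.0648 to 0.247 in controls and 0.0507 to 0.186 in mutants, a log2 difference of -0.78 that did not pass (exact permutation p = 0.159, adjusted 0.222). The ratio of *Eif4ebp1* to *Eif4ebp2* was 4.00 to 14.2 in controls and 11.5 to 39.0 in mutants, a log2 difference of 1.94 whose adjusted value missed the threshold (exact permutation p = 0.0238, adjusted 0.0556), and without Cont_76 it was 2.27 with an adjusted value of 0.0417.

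**Figure D3:**
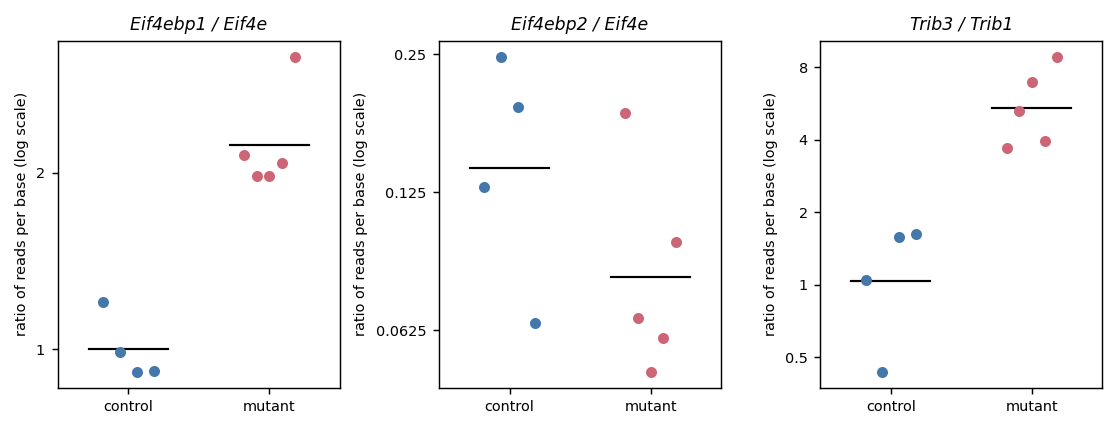
Ratio of reads per base of *Eif4ebp1* to *Eif4e*, *Eif4ebp2* to *Eif4e* and *Trib3* to *Trib1* (log-scaled vertical axes) in each control (blue) and mutant (red) library, with the geometric mean as a line. *Eif4ebp1* to *Eif4e* is 0.915 to 1.2 in controls and 1.98 to 3.16 in mutants, *Trib3* to *Trib1* 0.433 to 1.62 and 3.70 to 8.87, and *Eif4ebp2* to *Eif4e* overlaps.

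Of the tribbles, *Trib3* (ENSMUSG00000032715, chr2:152337422-152344032), the pseudokinase that can bind AKT and ATF4, had the largest log2 fold change of the 10 members. It was at 1.96, 1.91, 4.89 and 4.47 CPM in controls, from 46 to 116 reads, and 20.03, 19.1, 21.6, 19.8 and 41.0 CPM in mutants, from 403 to 903 reads. The 4 mutants other than QpcKO_79 lay close together, and even the lowest of them was far above the highest control. Its log2 fold change of 2.88 (SE 0.35, interval 2.13 to 3.63, edgeR adjusted p = 0.000525) ranged from 2.61 to 3.13 with each library left out in turn.

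*Trib1* (ENSMUSG00000032501, chr15:59648350-59656550), the adaptor between C/EBP factors and the ubiquitin ligase COP1, was at 3.49, 8.22, 5.77 and 5.15 CPM in controls and 10.1, 6.77, 5.81, 9.35 and 8.62 CPM in mutants. The groups overlapped because Cont_72 exceeded QpcKO_75 and QpcKO_77. Its log2 fold change was 0.52 (SE 0.26, interval -0.05 to 1.09, edgeR adjusted p = 0.196), and 0.74 with 1 surrogate variable in the model (adjusted p = 0.0370). *Trib2*, the tribbles gene with the highest level per length in controls, averaged 73.9 ± 25.0 CPM in controls and 53.1 ± 16.8 in mutants, with a log2 fold change of -0.48 (interval -1.01 to 0.06, edgeR adjusted p = 0.208).

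The share of *Trib3* in the summed tribbles RPKM was 8.25% ± 3.94 in controls and 44.6% ± 6.69 in mutants, that of *Trib2* 84.5% ± 3.94 and 47.1% ± 5.47, and that of *Trib1* 7.25% ± 1.14 and 8.31% ± 1.88. The sum was 20.7 ± 6.51 RPKM in controls and 26.8 ± 8.11 in mutants and overlapped, while the share of *Trib3* did not, at 3.59% to 13.0% in controls and 34.4% to 50.5% in mutants. The ratio of *Trib3* to *Trib1* was 1.05, 0.433, 1.58 and 1.62 in controls and 3.70, 5.27, 6.92, 3.96 and 8.87 in mutants, a log2 difference of 2.39 (2-sided exact permutation test, p = 0.00794, adjusted 0.0278). With any 1 library left out, fewer regroupings exist and the adjusted value of this ratio and of *Eif4ebp1* to *Eif4e* was 0.0417 to 0.1. Of the 6 binding partners of tribbles tested, 1 was called, the C/EBP family member *Cebpb*, at 14.3 ± 2.64 CPM in controls and 26.6 ± 9.67 in mutants (log2 fold change 0.89, edgeR adjusted p = 0.0331).

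Around the 10 members, 103 further genes of the pathway were tested in 9 lists, of which 16 were higher and 5 lower, with a median log2 fold change of 0.13. Nothing particular to the pathway is read from these counts, set beside a background of 7.82% higher and 7.02% lower, and without Cont_73 the total of 21 was 8. None of the 8 other nutrient-side brakes (GATOR1, KICSTOR and CASTOR genes) passed in edgeR, where 2 were lower at an unadjusted p under 0.05, DESeq2 called none and limma-voom called 1 higher. None of the 11 AMPK and LKB1 complex genes passed either, with 2 higher and 2 lower at an unadjusted p under 0.05, none by DESeq2 and 3 by limma-voom.

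On the activating side of nutrient sensing, 6 of 18 genes were higher and none lower in edgeR, with 1 lower at an unadjusted p under 0.05 and 1 lower by DESeq2 and by limma-voom each. Among them, *Fnip2* and *Fnip1*, partners of folliculin, rose from 4.14 ± 0.732 to 8.72 ± 0.870 CPM and from 31.3 ± 2.23 to 61.7 ± 6.16 CPM, with log2 fold changes of 1.07 and 0.98 (edgeR adjusted p = 0.00562 and 0.000602). *Rragc*, the Rag GTPase on which folliculin acts, rose from 98.3 ± 9.59 to 170 ± 19.1 CPM (log2 fold change 0.79, edgeR adjusted p = 0.00178), and the other 3 were *Flcn* itself (0.65), *Lamtor3* (0.61) and *Rragd* (0.59). Folliculin and its partners set the nucleotide state of RRAGC and RRAGD, and through them also restrain TFEB and TFE3.

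Of the 12 genes of the mTOR complexes and RHEB, *Prr5l* and *Mapkap1*, both mTORC2 subunits, were lower, with log2 fold changes of -0.73 and -0.37 (edgeR adjusted p = 0.0257 and 0.0446), and none was higher in edgeR (1 at an unadjusted p under 0.05, 0 by DESeq2, 1 by limma-voom). Among 13 PI3K and AKT genes *Pik3r3*, a regulatory subunit of PI3K, was lower at 15.8 ± 5.00 CPM in controls and 6.73 ± 1.01 in mutants (log2 fold change -1.23, edgeR adjusted p = 0.00602). Among 9 brakes on AKT, the inositol phosphatase gene *Inpp5k* was lower, with a log2 fold change of -0.34 (edgeR adjusted p = 0.0434). The AKT phosphatase gene *Phlpp2* had 0.64 with an adjusted p of 0.0511.

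Downstream of mTORC1, 3 of 14 translation genes were higher and none lower in edgeR (1 lower at an unadjusted p under 0.05, 0 by DESeq2, 2 by limma-voom). They were *Eif4e3* (0.78), *Larp1* (0.68), which binds the caps of ribosomal protein mRNAs, and *Eif4g2* (0.54), a scaffold for initiation that does not bind eIF4E. Downstream of AKT, 5 of 12 genes of the FOXO list were called in edgeR, 4 higher and 1 lower. DESeq2 and limma-voom gave the same counts. The list holds FOXO factors and FOXO targets, and the targets *Ccng2*, *Bcl6*, *Cited2*, *Cdkn1b* and *Fbxo32* were not called. *Klf15* rose from 14.8 ± 4.32 to 33.8 ± 2.67 CPM (log2 fold change 1.19, edgeR adjusted p = 0.00240), *Foxo3* and *Foxo1* were higher at 0.55 and 0.52, and *Gabarapl1* at 0.36. *Txnip*, which restrains glucose uptake, was lower at 242 ± 38.1 CPM in controls and 126.3 ± 34.3 in mutants (log2 fold change -0.94, edgeR adjusted p = 0.00689), against the direction of the other 4.

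**Figure D4:**
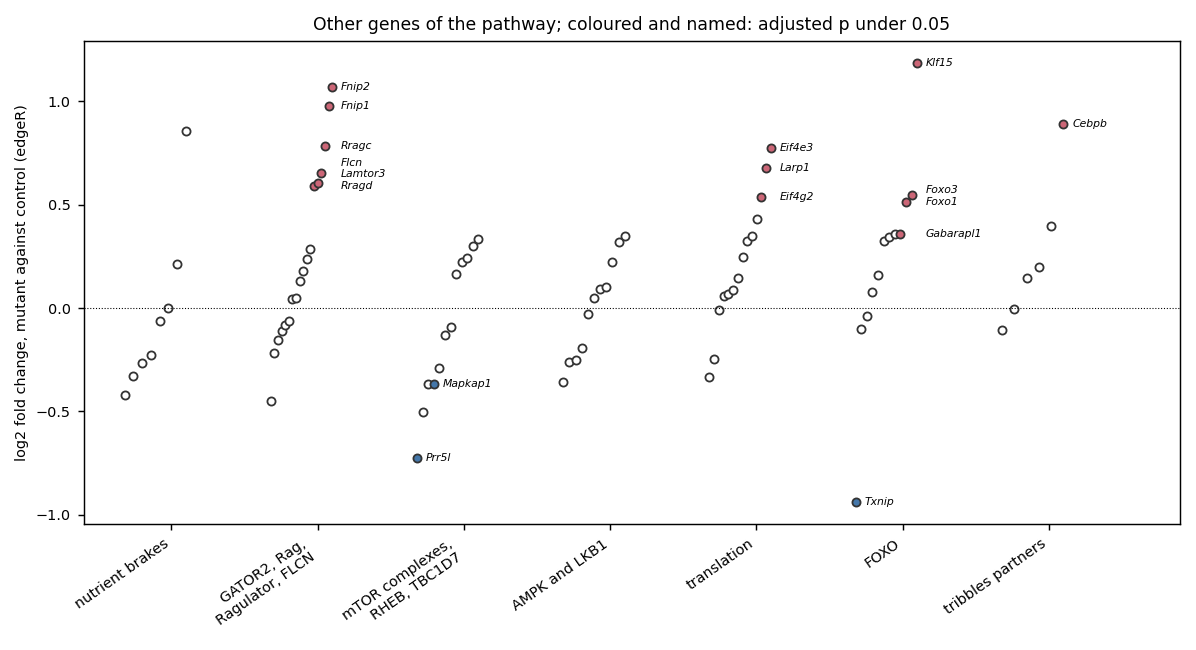
Log2 fold change, mutant against control, from edgeR (vertical axis) of 81 tested genes in 7 of the pathway lists, 1 point per gene, with genes past an adjusted p of 0.05 coloured red (higher, 14) or blue (lower, 3) and named. The largest values are those of *Klf15* (1.19), *Fnip2* (1.07) and *Fnip1* (0.98), and the lowest that of *Txnip* (-0.94).

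Of 10 transcription factors known to act on members of this group, 5 were higher and none lower in edgeR, where 7.82% and 7.02% of all tested genes were. At an unadjusted p under 0.05 and by DESeq2 0 were lower, and 1 was lower by limma-voom. *Atf4* averaged 192 ± 17.8 CPM in controls and 453 ± 103 in mutants (log2 fold change 1.24, edgeR adjusted p = 0.000857). *Ddit3*, which encodes the stress factor CHOP, was at 44.4 ± 12.1 and 142 ± 14.2 CPM (1.67, adjusted p = 0.000271), and *Nupr1* at 3.93 ± 1.71 and 95.8 ± 40.5 CPM (4.61, adjusted p = 0.000120). *Nfe2l2* (0.83) and *Cebpg* (0.62) were also higher. Not called were *Trp53* (0.12), *Hif1a* (0.33), *Nr3c1* (0.13), *Tfeb* (-0.50) and *Tfe3* (-0.02). Which factor acted on which member was not tested.

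The genes whose pattern over the 9 libraries was nearest to each of the 4 higher members were found by the root mean square difference of centred log2 CPM, among the 10663 genes that averaged 5 CPM or more. For *Trib3* they were *Chac1*, which degrades glutathione (0.266), and *Mthfd2*, a mitochondrial folate enzyme (0.416). For *Sesn2* they were *Slc7a5*, the subunit of a leucine transporter (0.274), and *Pde3a* (0.333). For *Eif4ebp1* they were *Ddit3* (0.171) and *Rpl26* (0.203), and for *Sesn3* they were *Zxdc* (0.132) and *Grpel2*, a mitochondrial co-chaperone (0.136). The distances for *Sesn3* and *Eif4ebp1* were smaller than those for *Trib3* and *Sesn2*, whose own spread within the mutants was wider.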

How the data were processed

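RNA was amplified by the authors from sorted cells, poly(A)-selected and sequenced without strand information. The submitters' processing notes list STAR, DESeq2 and build mm10. The counting tool and annotation are not given in the sources used here. The deposited table gives raw read counts per gene and library, which were used here. It also holds the authors' FPKM, computed from counts and gene length, their mean normalized signal per genotype, and log2 fold changes and p-values of their own comparison, none of which was used. No row lacked a gene name, and all members matched GENCODE M21 by identifier, symbol, chromosome and strand.

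The test used edgeR 4.0.16 in R 4.3.3 on all 26858 genes (filterByExpr, TMM, robust quasi-likelihood test, Benjamini-Hochberg over 14990 genes, threshold 0.05). Standard errors were taken as the fold change (log2) divided by the root of the F statistic. CPM and RPKM use TMM-scaled library sizes. Ratios of 2 genes were tested by exact permutation over all assignments of 9 libraries to groups of 4 and 5, with 7 ratios as one family. DESeq2 1.42.0, limma 3.58.1 (voom), sva 3.50.0 (1 surrogate variable), RLE and upper-quartile factors, other filters, a covariate for Y-linked expression and each library left out were the alternatives. The edgeR script was tested on simulated data. Sequences were handled with Python 3.11.15 and Biopython 1.88, and figures drawn with matplotlib 3.10.9. The genes named are the members, their paralogs and partners, *Eif4e*, *Uqcrq*, up to 3 genes per list with the largest called changes and the 2 nearest patterns of each called member. *Flcn*, *Lamtor3*, *Rragd*, *Gabarapl1*, *Phlpp2*, *Pdgfrb*, *Pecam1*, *Hspa1a*, *Hspa1b*, the uncalled FOXO targets, the ureteric markers and the remaining transcription factors were added once their values were known. The members and lists were chosen with earlier results of these data known. One gene of the brake list, *Bmt2*, was not analysed here. Some results of the AKT lists are not reported here.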

Additional observations from a re-analysis of the deposited data

Results flagged for a closer look

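In 6 of 56 groups of 4 or 5 libraries 1 library stood apart from the others by Dixon's criterion, of which chance gives about 1 in 20. QpcKO_79 was high for *Sesn2*, at 71.7 CPM against 26.3 to 30.3 in the other mutants, for *Trib3*, at 41.0 against 19.1 to 21.6 CPM, and for the ratio of *Eif4ebp1* to *Eif4e*, at 3.16 against 1.98 to 2.15. QpcKO_74 was high for *Eif4ebp2*, at 43.7 CPM against 17.4 to 23.7. Cont_71 was low for the ratio of *Ddit4* to *Tsc2*, at 0.811 against 1.23 to 1.28. Cont_76 was high for the summed progenitor markers, at 2715 CPM against 2244 to 2289.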

How the results depend on the processing

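*Sesn2*, *Sesn3*, *Eif4ebp1* and *Trib3* were called higher in all 17 alternatives. The count of members called was 4 in 14 of them, 5 without QpcKO_74 and with 1 surrogate variable, and 6 with limma-voom. The count over all genes was 2225, 4858 with limma-voom and 1760 to 3184 in the other alternatives that used every library. With 1 library left out it was 1046 to 3136. It fell most without Cont_73 (1046), Cont_72 (1272), QpcKO_78 (1336) and Cont_71 (1354), and rose most without QpcKO_74 (3136). The pathway count of 21 was 37 with limma-voom and 16 to 31 in the others that used every library. With 1 library left out it was 8 to 27, and fell to 8 without Cont_73, 9 without Cont_71, 12 without Cont_72 or QpcKO_78 and 13 without QpcKO_75 or QpcKO_79. The log2 fold change of *Tsc1* was -0.039 without Cont_76 and up to 0.20 without other libraries. That of *Tsc2* turned to 0.048 with 1 surrogate variable and 0.032 with the Y-linked covariate, and lay between -0.15 (without QpcKO_79) and 0.018 (without QpcKO_78) with 1 library left out, turning also without Cont_72, Cont_76 or QpcKO_75. The log2 ratio difference of *Tsc1* to *Tsc2* ranged from -0.038 (without Cont_76) to 0.31 with each library left out, that of *Eif4ebp1* to *Eif4ebp2* from 1.67 to 2.27, of *Eif4ebp1* to *Eif4e* from 1.03 to 1.25 and of *Trib3* to *Trib1* from 1.97 to 2.60. The last 2 kept their direction, with adjusted exact permutation p of 0.0417 to 0.1, and leaving out a library leaves fewer splits and so a larger smallest p. No paired analysis was possible because the labels give no litter or other link between control and mutant libraries. At this depth the spread between libraries, not counting error, set the intervals of the members.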
